A study of Homo sapiens with 4 samples.

Results

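The immunoglobulin gene rows of AMO1 cells were the 64 rows, of 37247 in the deposited table, whose gene name marks a variable, joining or constant segment of the heavy, kappa or lambda locus, or JCHAIN, and whose TPM (an abundance corrected for transcript length and scaled to an equal total per library) was above 0 in at least 1 library. A further 294 rows with such names were listed at 0 in all 4 libraries. AMO1, an established human cell line labelled as a wild-type plasmacytoma, serves as a model of multiple myeloma. The cells were held for 6 h with periplocin, a plant cardiac glycoside, at 0.2 mM as the labels give it, or with the vehicle DMSO at 0.10%. Each group held 2 libraries of total RNA sequenced as paired ends. The title of the series names the sodium and potassium pump as the drug target and concerns inhibition of c-Myc.

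An antibody is built from identical heavy chains and identical light chains, each with a variable domain at the tip and a constant region behind it. A B cell joins a variable, a joining and, in the heavy chain, a diversity segment once in its DNA, so a plasma cell and the tumour that descends from it carry a single productive heavy chain and usually a single light chain, kappa or lambda. The constant segment of the heavy chain sets the class, and the J chain links IgA or IgM units into polymers. Since the segments are families of close copies, a read of the rearranged gene can match several rows, and mutations that a B cell adds to its variable segments move the transcript away from the reference.

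Each library summed to 1000000 TPM, and between 12357 and 12915 rows reached a TPM of 1. How many reads stand behind a TPM value is unknown, because the unit drops the depth. All 9 plasma cell markers were present, and their summed level was 3927 and 3757 TPM with periplocin, against 4227 and 4134 TPM with DMSO. That sum mixes markers that were higher and markers that were lower with periplocin. The B cell markers MS4A1 and PAX5 stayed under 1 TPM, and the T cell markers CD3D and CD2, the myeloid markers FCGR3A and S100A8 and the erythroid markers HBA1 and ALAS2 were listed at 0 in every library. Summed markers were 49.5 and 49.3 TPM with periplocin, against 67.5 and 63.6 TPM with DMSO, for B cells, of which CIITA gave most. They were at most 8.06 TPM for T and NK cells, 1.74 TPM for myeloid cells and 0.783 TPM for erythroid cells in any library. CD3E had 2.22 and 3.49 TPM with periplocin, against 2.43 and 2.09 TPM with DMSO. NKG7 had 0.964 and 0 TPM with periplocin, against 4.20 and 2.21 TPM with DMSO. The myeloid marker CSF1R had 0.937 and 1.45 TPM with periplocin, against 0.532 and 1.05 TPM with DMSO.

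Sequences that bear on which rows can be told apart are given here, each 5′ to 3′ on the coding strand, from GENCODE 29 transcripts on GRCh38. The hinge stretch is shown for the 2 alpha constant rows, because the longest gap between their coding sequences lies there. Capitals mark the 39 bases of IGHA1 that have no counterpart in IGHA2.
IGHA1, chr14:105708063-105708144, minus strand: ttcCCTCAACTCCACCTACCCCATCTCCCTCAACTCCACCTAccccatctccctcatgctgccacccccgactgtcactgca
IGHA2, chr14:105587832-105587874, minus strand: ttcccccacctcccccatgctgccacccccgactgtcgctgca

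Outside gaps the alpha coding sequences were 96.8% identical. The heavy joining segments are shown because a pseudogene among them, IGHJ3P, was the only one with any TPM. Capitals mark runs of at least 10 bases that another segment shown here also holds.
IGHJ3P, chr14:105863416-105863465, minus strand: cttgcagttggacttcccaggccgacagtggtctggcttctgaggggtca
IGHJ3, chr14:105864587-105864635, minus strand: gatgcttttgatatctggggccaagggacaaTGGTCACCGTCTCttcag
IGHJ4, chr14:105864215-105864260, minus strand: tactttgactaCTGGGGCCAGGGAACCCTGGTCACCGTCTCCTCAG
IGHJ5, chr14:105863814-105863862, minus strand: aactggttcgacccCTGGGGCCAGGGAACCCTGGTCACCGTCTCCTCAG
IGHJ6, chr14:105863198-105863258, minus strand: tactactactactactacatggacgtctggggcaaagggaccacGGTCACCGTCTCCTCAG

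IGHJ3P held no such run, while IGHJ4 and IGHJ5 had 35 bases in them, IGHJ6 had 17 and IGHJ3 had 13. It lies 348 bases downstream of IGHJ5 and 157 bases upstream of IGHJ6. The lambda joining row IGLJ1 is shown because nearly all of it belongs to another gene as well. Capitals mark its 122 of 127 bases inside an exon of IGLL5, a gene whose exons overlap the IGLJ1 and IGLC1 rows on the same strand.
IGLJ1, chr22:22893692-22893818, plus strand: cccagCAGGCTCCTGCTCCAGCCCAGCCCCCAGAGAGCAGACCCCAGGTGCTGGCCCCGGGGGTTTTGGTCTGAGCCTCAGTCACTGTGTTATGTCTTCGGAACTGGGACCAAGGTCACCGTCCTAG

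AMO1 cells expressed an IgA1 heavy chain with a kappa light chain, and the same rows led in both groups. The 64 rows took 12.0% and 11.8% of all TPM in the periplocin libraries, against 10.6% and 10.7% in the DMSO libraries. Variable and constant parts of a chain lie in the same transcript but are separate rows, so the sum counts that transcript more than once. Constant rows and JCHAIN alone took 6.93% and 6.96% with periplocin, against 5.85% and 6.21% with DMSO. Over the 64 rows the means were 11.9% ± 0.146 with periplocin and 10.6% ± 0.110 with DMSO (SD, n = 2 each), a difference of 1.26 percentage points. The groups did not overlap, but an exact two-sided permutation test of 2 against 2 libraries gave p = 0.33, the smallest it can give. The labels do not state whether replicate libraries were grown as separate cultures, so every p-value here reflects the spread among these 4 libraries, which may be technical. In bulk RNA, fewer cells of a type and less RNA per cell cannot be told apart.

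By chain, the kappa constant row took 4.94% and 4.94% of TPM with periplocin, against 4.08% and 4.33% with DMSO. Kappa variable rows took 3.78% and 3.65% with periplocin, against 3.31% and 3.32% with DMSO. Heavy constant rows took 1.32% and 1.28% with periplocin, against 1.11% and 1.16% with DMSO. These 3 shares were higher in both periplocin libraries than in either DMSO library. The kappa constant and kappa variable shares are not independent, as they are parts of the same transcript. Heavy variable rows overlapped between the groups, at 0.908% and 0.816% with periplocin and 0.859% and 0.768% with DMSO. Heavy joining rows were lower without overlap, at 0.382% and 0.374% with periplocin and 0.531% and 0.407% with DMSO. Lambda constant rows were lower without overlap too, at 0.0151% and 0.0168% with periplocin and 0.0351% and 0.0376% with DMSO, as were the still smaller lambda variable and lambda joining shares. The J chain overlapped, at 0.658% and 0.721% with periplocin and 0.620% and 0.676% with DMSO. The plot of library shares by chain shows that the kappa rows made up most of each bar.

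**Figure D1:**
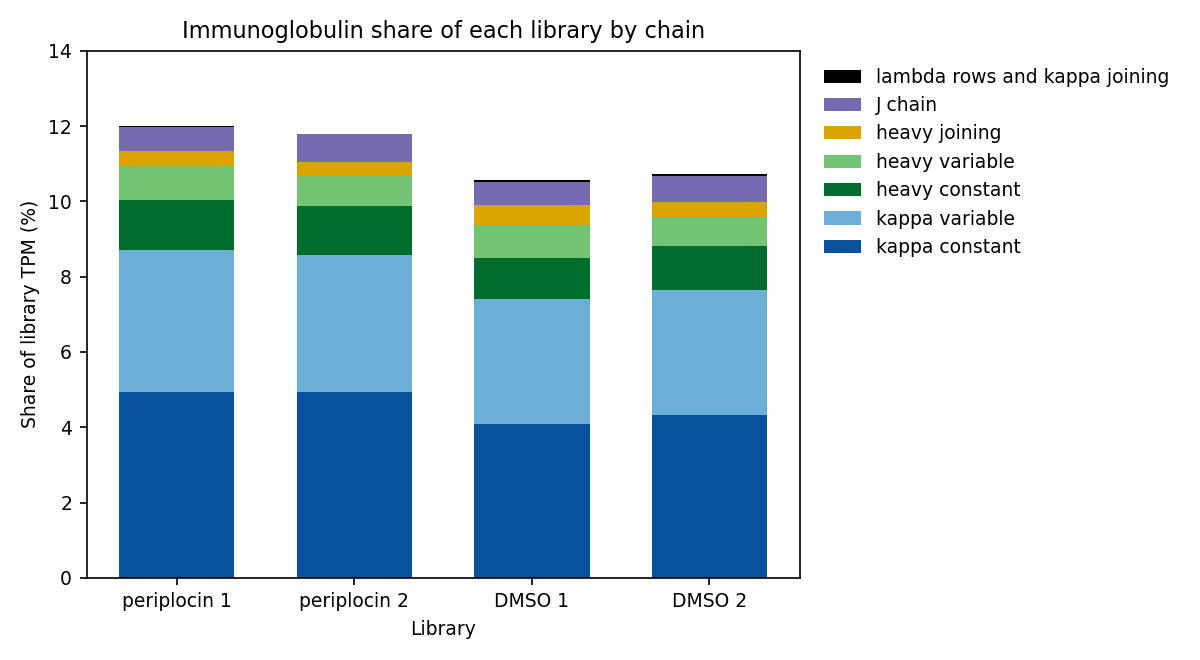
Stacked bars give the share of each library's TPM (%) taken by the immunoglobulin rows, split by chain, for the 2 periplocin and the 2 DMSO libraries. The bars reach 12.0% and 11.8% with periplocin and 10.6% and 10.7% with DMSO, and the kappa constant and kappa variable rows fill most of each.

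A few rows carried nearly all of it, as IGKC, IGKV3D-20, IGHA1, IGHV3-23 and JCHAIN together held 96.5% and 96.5% of immunoglobulin TPM with periplocin, against 94.4% and 95.5% with DMSO. Among all 37247 rows, IGKC ranked 1, IGKV3D-20 ranked 2, IGHA1 ranked 4, IGHV3-23 ranked 7 and JCHAIN ranked 12 by mean TPM. In all, 6 rows had a mean TPM of at least 1000, 6 lay between 10 and 1000, 24 between 1 and 10, and 28 under 1. Of the 64 rows, 30 were above 0 in all 4 libraries and 14 in a single library, and 19 were pseudogenes.

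Of the 64 rows, 33 reached a TPM of 1 in at least 2 libraries and were tested with all 12947 such genes by limma on log2(TPM + 1). At an adjusted p under 0.05, 3 of the 33 were higher with periplocin (9.09%), against 10.4% of all tested genes, and 5 were lower (15.2%), against 18.9% of all tested genes. In either direction 8 were called (24.2%), against 29.3% of all tested genes. Of the called rows, IGHV3OR16-12 and IGHV3OR16-16 passed the filter through the periplocin libraries alone and IGLV3-7 through the DMSO libraries alone. The filter thus fixed the direction of these rows. The share of immunoglobulin rows called was near the background. Their median log2 fold change was -0.06, against -0.14 for all tested genes. That shift of all genes is close to 0 (-0.01) after scaling by size factors, so small changes below are relative to it. With size factors 2012 genes were higher and 1745 lower, against 1352 and 2443 as deposited, and the immunoglobulin rows split into 5 higher and 5 lower. Without DMSO replicate 1, and likewise without DMSO replicate 2, no gene of the table passed the threshold, although 3925 and 4156 had an unadjusted p under 0.05, 9 and 12 of them immunoglobulin rows.

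**Figure D2:**
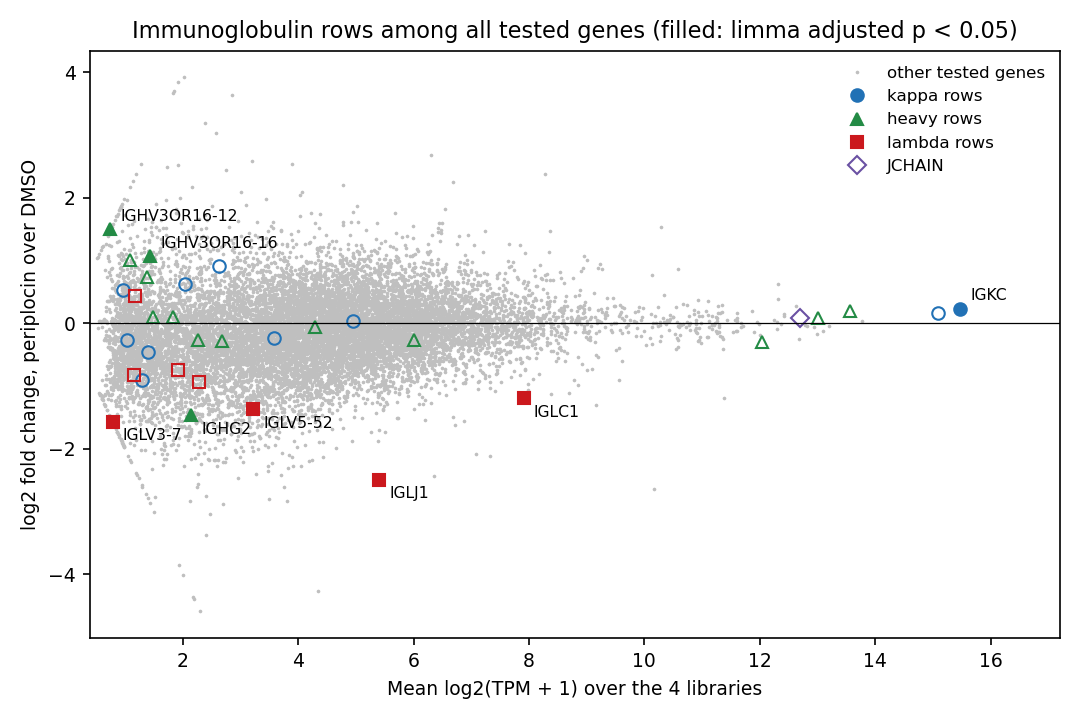
Each point is a tested gene, placed by its mean log2(TPM + 1) over the 4 libraries and its log2 fold change, periplocin over DMSO. Immunoglobulin rows are coloured by chain and filled where the limma adjusted p was under 0.05, and the most abundant rows at the right lie close to 0 while the called lambda rows lie between -2.49 and -1.20.

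The kappa constant region was the most abundant transcript of the cells and rose slightly. IGKC (chr2:88857161-88857683, minus strand) encodes the constant domain shared by every kappa light chain. Its TPM was 49394 and 49369 with periplocin, against 40808 and 43326 with DMSO. Both periplocin libraries lay above both DMSO libraries, a pattern that 25.4% of all tested genes showed. The log2 fold change was 0.23 (SE 0.06, limma adjusted p = 0.0376). The call was lost without a filter on low values (limma adjusted p = 0.561), without the variance trend (0.213), when any library was left out (0.128 to 0.287) and under quantile normalization, which gives the row ranked 1 the same value in every library. Over the alternatives other than quantile normalization the limma adjusted p ran between 0.00839 and 0.561. No 31-base word of IGKC occurred in another gene.

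The light chain was kappa in all libraries. IGKC held 99.7% and 99.7% of light chain constant TPM with periplocin, against 99.1% and 99.1% with DMSO. The kappa joining rows were at 0 except IGKJ2, at 5.33 TPM in periplocin replicate 2. All 39 exon bases of IGKJ2 also lie in exons of AC244205.1 on the same strand, so the pair cannot be told apart. IGKV3D-20 (chr2:90038848-90039479, plus strand), a kappa variable segment, held 99.8% and 99.8% of kappa variable TPM with periplocin, against 99.8% and 99.9% with DMSO. Its TPM was 37716 and 36389.6 with periplocin, against 33069 and 33121 with DMSO. Both periplocin libraries lay above both DMSO libraries, as for 25.4% of all tested genes. The log2 fold change of 0.16 (SE 0.06) did not pass (limma adjusted p = 0.0828). It passed with size factors (log2 fold change 0.31, limma adjusted p = 0.0209), with a filter at a TPM of 5 (0.0376) and with same-numbered libraries as a block (0.0172). It did not pass with no filter on low values (limma adjusted p = 0.645), without the variance trend (0.344), with the rescaled table (0.0609) or with other pseudocounts. Quantile normalization, which sets values by rank alone, gave IGKV3D-20 a log2 fold change of 0. That value could not show a change in a row whose rank stayed the same. With any library left out the log2 fold change was 0.14 to 0.19. The limma adjusted p had a range of 0.0172 to 0.645 among the alternatives other than quantile normalization.

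Of the 31-base words of IGKV3D-20, 68.2% occur in another gene, 54.9% in IGKV3-20, a near copy elsewhere in the locus. The coding sequences of this pair, 348 bases each, were 98.6% identical, with 5 mismatches. IGKV3-20 itself had 8.50 and 11.8 TPM with periplocin, against 17.7 and 7.95 TPM with DMSO, so the groups overlapped (log2 fold change -0.23, limma adjusted p = 0.660). ENSG00000233999, the second kappa variable row of the plot of TPM by library, has 94.0% identity to IGKV3D-20 and had 30.3 and 30.3 TPM with periplocin, against 35.0 and 24.8 TPM with DMSO (log2 fold change 0.04, limma adjusted p = 0.890). The gene that shares most of its 31-base words (93.1%) is IGKV3D-7, listed at 0 in all libraries. IGKV3D-11 had 5.83 and 9.51 TPM with periplocin, against 1.99 and 5.85 TPM with DMSO, which also overlapped (log2 fold change 0.91, limma adjusted p = 0.168). Whether reads of the 3 smaller rows came from the IGKV3D-20 transcript was not tested. It was also not tested whether reads counted at IGKV3D-20 came from a rearranged near copy such as IGKV3-20. IGKC was the sole kappa row called among 10 tested.

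The heavy chain was alpha 1. IGHA1 (chr14:105703995-105708665, minus strand) encodes the IgA1 constant region. Its TPM was 13192 and 12814 with periplocin, against 11114 and 11620.3 with DMSO. It was higher without overlap, as were 25.4% of all tested genes. The log2 fold change of 0.19 (SE 0.06) fell just short (limma adjusted p = 0.0549). It passed with size factors (log2 fold change 0.34, limma adjusted p = 0.0141) and with a filter at a TPM of 5 (0.0289). It also passed with the table rescaled without immunoglobulin rows (0.0430) and with same-numbered libraries as a block (0.0168). It did not pass with no filter on low values (limma adjusted p = 0.439), without the variance trend (0.278) or with other pseudocounts. Quantile normalization, which sets values by rank alone, gave IGHA1 a log2 fold change of 0. That value could not show a change in a row whose rank stayed the same. With any library left out the log2 fold change was 0.16 to 0.23. The limma adjusted p had a range of 0.0141 to 0.439 among the alternatives other than quantile normalization.

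IGHA2, the IgA2 constant region, had 18.1 and 18.1 TPM with periplocin, against 18.2 and 19.7 TPM with DMSO. Its log2 fold change was -0.06 (limma adjusted p = 0.754), and its sign turned with size factors (0.08) and quantile normalization (0.09). Of its 31-base words 46.8% occur in another gene, and 47.1% of those of IGHA1 do, so reads from the shared stretches cannot be told apart between the pair. The 2 alpha rows held 99.99% of heavy constant TPM with periplocin and 99.94% with DMSO. IGHM and IGHD, the constant regions of IgM and IgD, were listed at 0 in all libraries, and IGHG1, IGHG3, IGHG4, IGHE and IGHGP stayed under 1 TPM. IGHG2, the IgG2 constant region, had 1.80 and 1.5 TPM with periplocin, against 6.47 and 6.16 TPM with DMSO. IGHG2 shares 65.5% of its 31-base words with other genes. It was lower with periplocin without overlap, as were 43.4% of all tested genes, with a log2 fold change of -1.47 (SE 0.23, limma adjusted p = 0.00915). The call was lost with no filter on low values (limma adjusted p = 0.0503) and, like every call, without either DMSO library. With all 4 libraries kept, the limma adjusted p had a range of 0.00805 to 0.0503 among the alternatives. With any library left out the log2 fold change was -1.55 to -1.38.

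The leading heavy variable row was IGHV3-23 (chr14:106268606-106269140, minus strand), which held 99.1% and 98.8% of heavy variable TPM with periplocin, against 99.1% and 98.6% with DMSO. Its TPM was 8994 and 8059.8 with periplocin, against 8508 and 7578 with DMSO. The groups overlapped and the log2 fold change of 0.08 (SE 0.09) did not pass (limma adjusted p = 0.489). JCHAIN (chr4:70655541-70681817, minus strand), at 6576 and 7208 TPM with periplocin and 6201 and 6763 TPM with DMSO, overlapped as well (log2 fold change 0.09, SE 0.08, limma adjusted p = 0.412). Per unit of IGHA1, JCHAIN stood at 0.498 and 0.562 with periplocin and at 0.558 and 0.582 with DMSO. IGKC stood at 3.74 and 3.85 times IGHA1 with periplocin and at 3.67 and 3.73 times with DMSO.

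**Figure D3:**
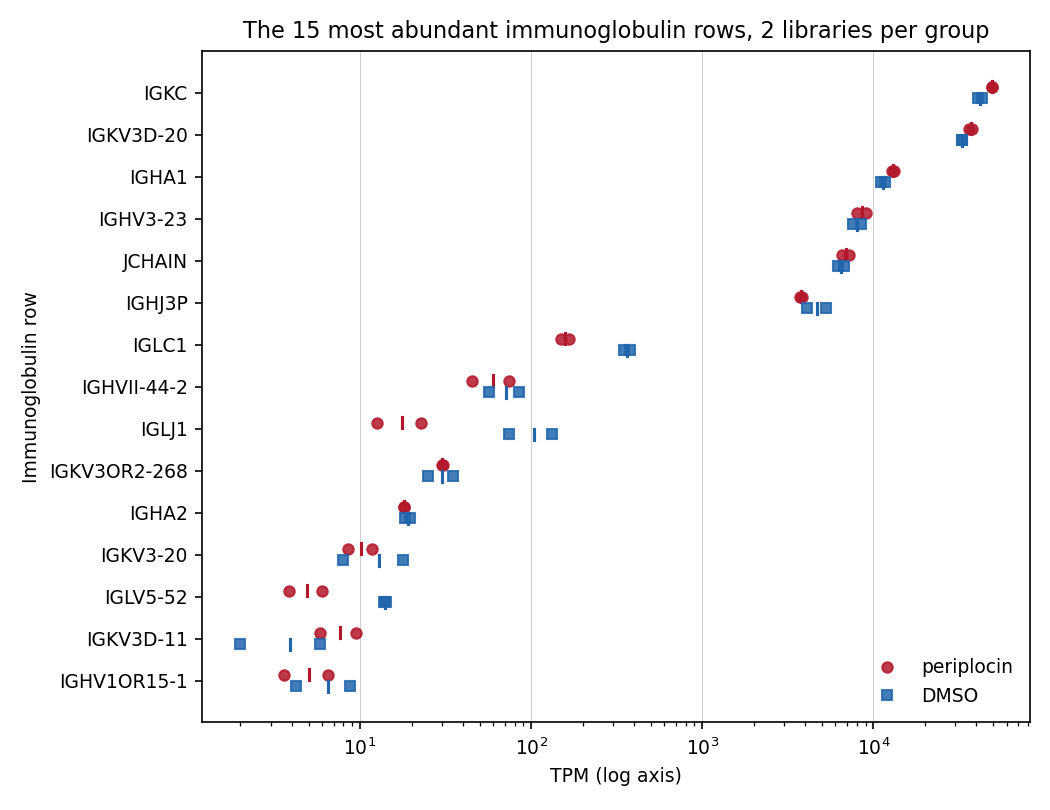
Points give the TPM (log axis) of the 15 most abundant immunoglobulin rows in each of the 2 periplocin libraries (circles) and the 2 DMSO libraries (squares), with a short line at each group mean. The IGKC circles, at 49394 and 49369 TPM, lie just right of its squares, and the IGLC1 and IGLJ1 circles lie well left of theirs.

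IGHJ3P (chr14:105863416-105863465, minus strand), a joining pseudogene of 50 bases, had 3825 and 3745 TPM with periplocin, against 5309 and 4068 TPM with DMSO. Both periplocin libraries lay below both DMSO libraries, as for 43.4% of all tested genes. The log2 fold change of -0.30 (SE 0.12) did not pass (limma adjusted p = 0.123). The other 8 heavy joining rows were listed at 0. TPM divides by transcript length, so a row this short needs few reads for a high value, and none of its 31-base words occurs in another gene. IGHVII-44-2, a variable pseudogene, had 44.9 and 74.3 TPM with periplocin, against 56.6 and 84.97 TPM with DMSO (log2 fold change -0.26, limma adjusted p = 0.516). Of its exon bases 90.8% lie opposite LINC00221, a long non-coding RNA, and no source used here states strand use, so the pair cannot be told apart. IGHV1OR15-1 had 6.46 and 3.57 TPM with periplocin and 8.68 and 4.23 TPM with DMSO (log2 fold change -0.28, limma adjusted p = 0.605). Of its 31-base words 100% occur in another gene.

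A pair of low heavy variable rows were higher with periplocin. IGHV3OR16-12 had 1.85 and 1.79 TPM with periplocin and was listed at 0 in both DMSO libraries (limma adjusted p = 0.0192). IGHV3OR16-16 had 2.98 and 2.88 TPM with periplocin, against 0.851 and 0.907 TPM with DMSO (log2 fold change 1.06, SE 0.27, limma adjusted p = 0.0319). Both passed the filter through the periplocin libraries alone, so they had to be higher to be tested at all. Neither call held when any library was left out, with limma adjusted p of 0.0691 to 0.102 for IGHV3OR16-12 and 0.102 to 0.125 for IGHV3OR16-16.

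The lambda rows were low in level, and several were lower with periplocin. Of 8 lambda rows tested, 4 were called lower, against 18.9% of all tested genes, and none higher, against 10.4% of all tested genes. That count is a description only, since IGLC1 and IGLJ1 overlap the same gene, and IGLV3-7 and IGLV3-1 passed the filter through the DMSO libraries alone and so had to be lower to be tested. IGLC1 (chr22:22895375-22895834, plus strand), a lambda constant row, had 149 and 166 TPM with periplocin, against 349.6 and 375 TPM with DMSO. The groups were far apart, with a log2 fold change of -1.20 (SE 0.09, limma adjusted p = 0.00245). With any library left out the log2 fold change was -1.27 to -1.12, and the call, like every other, was lost without either DMSO library. IGLJ1 (chr22:22893692-22893818, plus strand), a lambda joining row, had 12.5 and 22.8 TPM with periplocin, against 74.5 and 133 TPM with DMSO. Its log2 fold change was -2.49 (SE 0.35, limma adjusted p = 0.00685). Left unfiltered, it missed the threshold (limma adjusted p = 0.0520, over a range of 0.000655 to 0.0976 among the alternatives).

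All of IGLC1 and nearly all of IGLJ1 cannot be told apart from IGLL5 by sequence. IGLL5, which encodes an immunoglobulin lambda-like polypeptide, shares all 460 exon bases of IGLC1, and the 31-base words of IGLC1 and IGLJ1 were found in IGLL5 for 100% and 97.9%. In the other direction, 39.2% of the 31-base words of IGLL5 occur in another gene, 31.7% in IGLC1. IGLL5 had 49.9 and 36.5 TPM with periplocin, against 121 and 92.2 TPM with DMSO. It was lower as well, with a log2 fold change of -1.29 (SE 0.19, limma adjusted p = 0.00775). The map of the lambda locus shows IGLC1 wholly, and IGLJ1 but for its first 5 bases, inside IGLL5 exons.

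**Figure D4:**
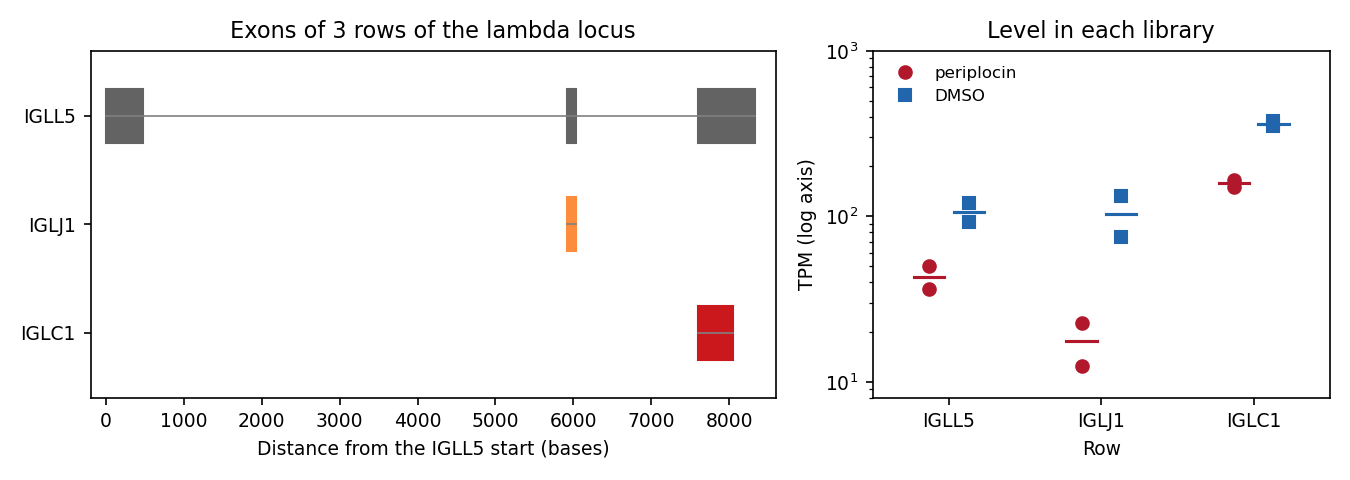
The left panel maps the exons of IGLL5, IGLJ1 and IGLC1 by distance from the IGLL5 start (bases), and the right panel gives their TPM (log axis) in the periplocin libraries (circles) and the DMSO libraries (squares) with group means as lines. The IGLJ1 and IGLC1 exons fall on IGLL5 exons, and all 3 genes are lower with periplocin.

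The remaining lambda rows were smaller. IGLV5-52, a lambda variable row and the most abundant of them, had 3.84 and 5.97 TPM with periplocin, against 13.7 and 14.2 TPM with DMSO (log2 fold change -1.36, SE 0.23, limma adjusted p = 0.0109), and with no filter it missed the threshold (limma adjusted p = 0.0579, over a range of 0.00548 to 0.12 among the alternatives). It shares few words with other genes (6.59%). IGLV3-7 stood at 0 in each periplocin library and had 2.75 and 1.34 TPM with DMSO (limma adjusted p = 0.0257). Its call did not hold with no filter (limma adjusted p = 0.0580) or when any library was left out (0.0795 to 0.114). IGLV3-1 had 0.675 and 0.660 TPM with periplocin, against 2.87 and 1.25 TPM with DMSO, and was not called (limma adjusted p = 0.138). IGLC2, with 95.3% identity to IGLC1, had 1.41 and 1.87 TPM with periplocin, against 1.61 and 0.439 TPM with DMSO (log2 fold change 0.44, limma adjusted p = 0.419). IGLC3 and IGLC7 were listed at 0. IGLL1, the lambda-like part of the surrogate light chain of precursor B cells, had 12.3 and 13.2 TPM with periplocin and 11.1 and 12.2 TPM with DMSO, which overlapped, and its partner VPREB1 was listed at 0.

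The 13 tested rows outside the naming rule, IGLV3-1 among them, were not called and had at most 8.59 TPM in any library. Of the 31 rows not tested, the highest value was 6.51 TPM, in IGHVII-46-1 in 1 periplocin library. The row just inside the test filter had a second highest TPM of 1.05 and the row just outside it 0.989. Sharing was common across the family, since of 36 rows with a mean TPM of at least 1, 15 had at least 50% of their 31-base words in another gene and 7 had none, with a median of 44.8%.

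**Figure D5:**
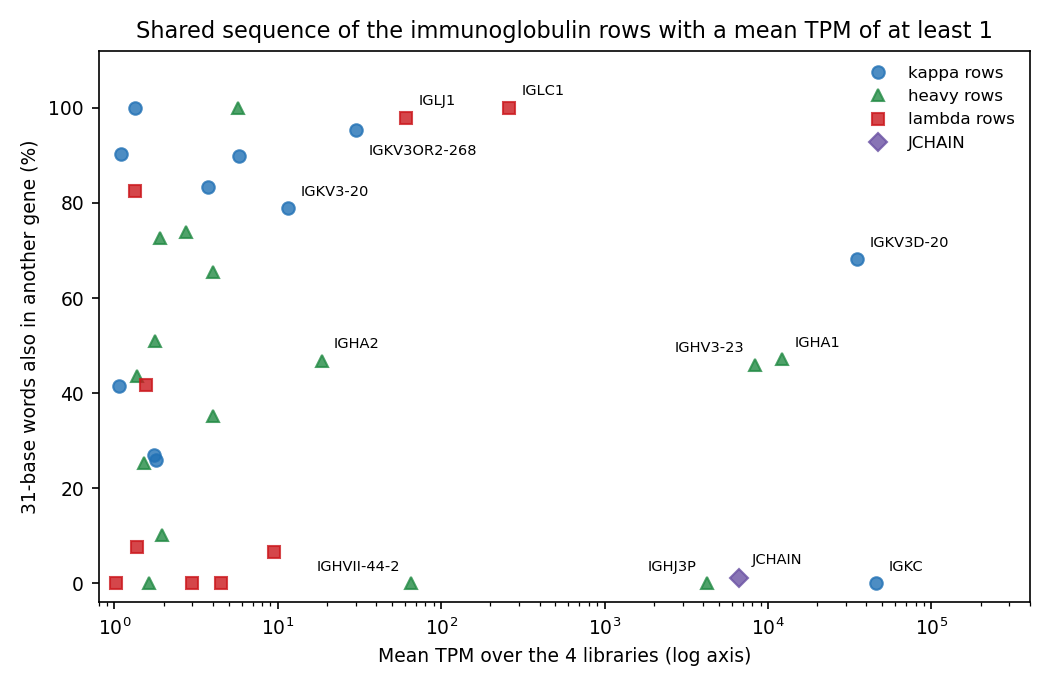
For the 36 immunoglobulin rows with a mean TPM of at least 1, the share of 31-base words also found in another gene (%) is plotted against mean TPM over the 4 libraries (log axis), coloured by chain. IGKC stands at 0% and IGLC1 at 100%, with IGKV3D-20 at 68.2%.

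Genes known to act on immunoglobulin were read from 5 lists, and each count is to be set beside the 10.4% of all tested genes that were higher, the 18.9% that were lower and the median log2 fold change of -0.14 over all tested genes. Among 20 tested regulators of immunoglobulin transcription and mRNA processing, 2 were higher and 7 lower, with a median log2 fold change of -0.05. SPIB, a B cell transcription factor, had 8.27 and 10.4 TPM with periplocin, against 51.01 and 38.1 TPM with DMSO (log2 fold change -2.13, limma adjusted p = 0.00375). PRDM1, the plasma cell factor Blimp-1, had 29.4 and 27.7 TPM with periplocin, against 55.3 and 59.0 TPM with DMSO (log2 fold change -0.98, limma adjusted p = 0.00445). POU2F1, the octamer factor Oct-1, was higher, with 14.5 and 15.5 TPM with periplocin, against 6.67 and 6.76 TPM with DMSO (log2 fold change 1.05, limma adjusted p = 0.00891).

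In the endoplasmic reticulum, where antibody chains fold, 11 of 28 tested genes were lower, against 18.9% of all tested genes, and 1 higher, against 10.4%, with a median log2 fold change of -0.23, against -0.14 for all tested genes. HSPA5, the chaperone BiP that holds unassembled heavy chains, had 310.1 and 331 TPM with periplocin, against 579.6 and 627 TPM with DMSO (log2 fold change -0.91, limma adjusted p = 0.00339). CALR, the lectin chaperone calreticulin, had 564 and 541 TPM with periplocin, against 1051 and 1005 TPM with DMSO (log2 fold change -0.90, limma adjusted p = 0.00245). CRELD2, a stress-induced protein of the same compartment, had 27.9 and 23.9 TPM with periplocin, against 68.3 and 57.7 TPM with DMSO (log2 fold change -1.25, limma adjusted p = 0.00442). LMAN1, a cargo receptor for export, was the gene that was higher (log2 fold change 0.44, limma adjusted p = 0.0418).

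Among 14 tested genes of V(D)J recombination and class switching, 2 were higher, against 10.4% of all tested genes, and 1 lower, against 18.9%, with a median log2 fold change of -0.06. UNG, which removes uracil from DNA, had 100.1 and 87.3 TPM with periplocin, against 57.7 and 56.1 TPM with DMSO (log2 fold change 0.71, limma adjusted p = 0.00769). The mismatch repair gene MSH6 was higher too (0.38, limma adjusted p = 0.0293), and the DNA repair endonuclease APEX1 was lower (-0.54, limma adjusted p = 0.0127). Of 6 tested B cell receptor partners and surrogate light chain genes, 2 were lower and none higher, with a median of -0.35, and these were IGLL5 and the kinase BTK (-1.37, limma adjusted p = 0.00426). Of 6 tested antibody receptor and transport genes, 2 were lower and none higher, with a median of -0.57, namely FCRL5 (-2.13, limma adjusted p = 0.00396), an Fc receptor-like protein of B cells, and TRIM21 (-0.89, limma adjusted p = 0.0198), a cytosolic antibody receptor.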

How the data were processed

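RNA from 2 periplocin and 2 DMSO libraries was compared, with groups taken from the labels. The authors deposited 1 table of TPM values; per the submitters' processing notes GRCh38 and DESeq2 are named, with no role. The quantifier and annotation were not given in the sources used here. Columns written PP were read as periplocin. Identifiers were named from GENCODE 29, which held 34620, and 2627 had no symbol. Values of exactly 0 can be failed estimates.

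The fit used limma 3.58.1 in R 4.3.3, with a trend, on log2(TPM + 1), over genes reaching a TPM of 1 in 2 or more libraries, two-sided, with Benjamini-Hochberg adjustment over 12947 genes at 0.05. Log2 fold changes understate low genes. It had 2 residual and 4.01 prior degrees of freedom, and was tested on simulated data. Python 3.11.15, pandas 2.3.3, numpy 2.4.6, matplotlib 3.10.9 and Biopython 1.88 served for tables, plots and alignments. Shared sequence was counted as 31-base words of a row found in transcripts of another gene, strand kept.

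The rows and gene lists were chosen with earlier results of these data known. Named were constant rows and JCHAIN whose mean TPM reached 1 in either group, the 15 most abundant rows, up to 10 called rows per direction and up to 3 called genes per list. IGKJ2, IGLV3-1, IGLL1, VPREB1, LMAN1, IGHVII-46-1 and rows named at or near 0 were chosen after their values were seen. Some items that the naming rule or marker lists hold are not reported here. Alternatives were other pseudocounts, filters, scalings, no trend, a replicate block and leaving out each library.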

Additional observations from a re-analysis of the deposited data

How the results depend on the processing

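With 2 libraries per group, no filter on low values left 613 genes higher and 1026 lower, against 1352 and 2443 as reported, and 1 and 2 immunoglobulin rows, against 3 and 5. Without the variance trend 876 genes were higher. Immunoglobulin rows called higher numbered 5 with size factors and 6 with a replicate block. Leaving out 1 library gave 0 to 522 genes higher and 0 to 1142 lower, and 0 to 1 and 0 to 5 immunoglobulin rows. Without periplocin replicate 1 the immunoglobulin counts were 0 and 5, without periplocin replicate 2 they were 1 and 4, and without either DMSO replicate they were 0 and 0. Why the counts differed with the library left out was not tested. With the 2 libraries of a number as a block, 1685 genes were higher and 2876 lower, and 6 immunoglobulin rows were higher and 6 lower, with IGHA1 (limma adjusted p = 0.0168), IGKV3D-20 (0.0172), IGKV3D-11 (0.0418) and IGHJ3P (0.0405) newly called. Same-numbered deviations correlated at 0.0324. That value cannot show whether same-numbered libraries shared a culture or batch, and the labels do not say.

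Among regulators of transcription, 2 were called higher as reported, 1 with no filter, 4 with size factors, 4 with quantile normalization, 1 without the trend and 0 to 1 without 1 library, which left 0 to 5 lower. For recombination, 1 was higher with no filter, 1 without the trend and 0 to 1 without 1 library, and lower calls were 0 without the trend and 0 to 1 without 1 library. For folding, higher calls were 0 with a pseudocount of 0.01, with no filter and without the trend, 2 with a filter at 5, with quantile normalization, with the rescaled table and with the block, 4 with size factors, and 0 to 1 without 1 library, which left 0 to 8 lower. Receptor partners and antibody receptors each had 1 lower with no filter, and 0 to 2 without 1 library.

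The difference in immunoglobulin share was 0.915 points over constant rows and JCHAIN alone and 1.16 to 1.36 without 1 library. The alpha share differed by 0.0453 to 0.0490 points, and the IGHV3-23 share of heavy variable TPM by -0.173 to 0.308, without 1 library. Signs turned for IGHA2 with size factors (0.075) and quantile normalization (0.087), for IGHVII-44-2 (-0.62 to 0.10), ENSG00000233999 (-0.20 to 0.28), IGKV3-20 (-0.77 to 0.30) and IGHV1OR15-1 (-0.73 to 0.16) over the alternatives, the last also with quantile normalization (0.016). Depth is unknown, so no counting interval can be given.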
